A study of Mus musculus with 12 samples.

Results

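Cells of the mouse melanoma line 4599 that had been isolated from lung metastases, the group Met (a group name here, not the gene of that name), were compared with 4599 cells from the part of the orthotopic tumour that the labels abbreviate DIF. The comparison uses 6 of 12 RNA libraries, 3 of each group, and the 12661 of 56748 genes whose mean level over the 12 libraries was at least 0.5 FPKM (fragments per kilobase of gene length, scaled by library size). The other 6 libraries were 4599 cells from 2 further tumour parts, TB and PIF, and their levels are given only where they place a difference. The abbreviations are not spelled out in the sources used here. Met cells carry the tissue label of a melanoma lung metastasis and DIF cells, like TB and PIF cells, that of an orthotopic melanoma. The labels name no treatment or genetic change that separated the groups, and genotypes were not compared here. All 4 had left the animal before RNA was taken: the isolated cells were plated on fibrillar collagen from bovine dermis (1.7 mg/ml) and stayed in DMEM with 10% serum for 24 h and with 1% serum for another 24 h. The values are therefore those of cultured cells on a shared substrate, and they show which genes differed between these groups of libraries after culture. No source says if the replicates were separate animals, isolates or dishes, so the p-values measure the spread between these libraries, which may be technical. If each group came from a single isolate, site of origin and isolate cannot be told apart.

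Tumour cells that seed the lung meet another matrix, other growth factors and other immune signals than cells at the edge of a primary tumour. Interferons act through transcription factors such as IRF9, which bind a GAAA repeat called the interferon-stimulated response element and switch on antiviral genes such as Isg15 and Bst2. The aryl hydrocarbon receptor, a ligand-activated transcription factor, switches on enzymes that oxidise and conjugate aromatic compounds, with Cyp1a1 as its best known target.

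Of the 12661 genes, 489 (3.86%) were called between Met and DIF at an adjusted p under 0.05 (limma on log2(FPKM + 1), Benjamini-Hochberg adjustment over all tested genes, two-sided). Of these, 299 (2.36%) were higher and 190 (1.5%) were lower in Met. Most differences were small: the median size over the called genes was 0.48 on the log2 scale, and 26 called genes rose and 22 fell by at least 2-fold on that scale. The median change over all tested genes was -0.00098. In each called gene the 3 Met values lay wholly above or below the 3 DIF values, a separation that 12% of all tested genes showed upwards and 10.9% downwards. Of the 6 pairs of the 4 groups this one had the fewest calls: DIF against TB had 1091 (8.62%), Met against TB 1259 (9.94%), PIF against TB 1785 (14.1%), Met against PIF 2234 (17.6%) and DIF against PIF 2390 (18.9%). The count of 489 fell by unequal amounts when a library was left out. It was 286, 277 and 370 without DIF replicate 1, 2 and 3. Without Met replicate 1, 2 and 3 it was 400, 257 and 234. When only the 6 DIF and Met libraries were fitted it was 300.

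**Figure D1:**
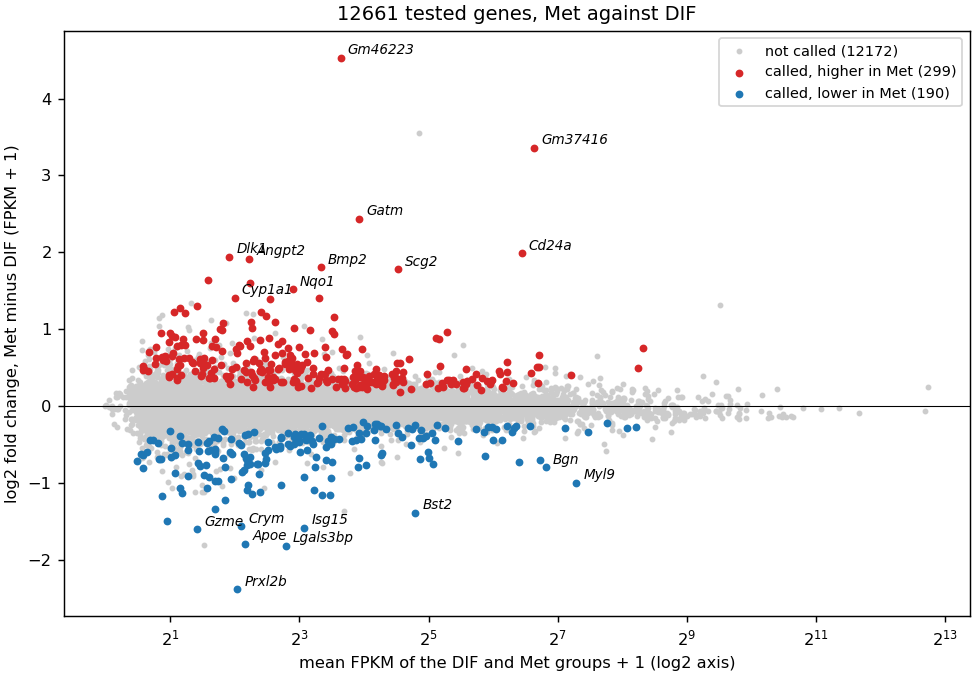
Log2 fold change of Met against DIF (vertical, FPKM + 1) against the mean FPKM of both groups + 1 (horizontal, log2 axis), with 1 point per tested gene. The 299 genes called higher in Met are red, the 190 called lower are blue, and most lie within 1 log2 unit of 0.

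Depth differed little, with 16.3 to 18.2 M rebuilt reads in the DIF libraries and 17.9 to 18.3 M in the Met libraries. Reads of ribosomal RNA took 1.17% ± 0.0556 in DIF and 1.38% ± 0.106 in Met (SD, n = 3), and their part in the results was not tested. The label of melanoma cells was checked against markers: Sox10, a transcription factor of the neural crest and melanocytes, stood at 221 ± 18.0 FPKM in DIF and 217 ± 15.4 in Met, while the pigment enzyme gene Tyr was listed at 0 in all 6 libraries. Of 27 leukocyte markers, 16 were listed at 0 in the 6 libraries, including Ptprc, Cd3e and Adgre1, and the summed level was 1.23 to 2.10 FPKM in DIF and 1.73 to 1.99 in Met. Of 21 lung epithelium markers, 8 were at 0, including Sftpc and Nkx2-1, with sums of 5.34 to 6.40 and 4.83 to 5.96 FPKM. Fibroblast markers summed to 300.4 to 372 FPKM in DIF and 271 to 373 in Met, mostly Fn1. Of the 4 tested, 2 were called lower in Met (50%, against 1.5% of all tested genes lower in Met). They were Ly6a, from 38.4 to 23.7 FPKM, and Col3a1, from 12.3 to 7.1, and neither kept the call in every alternative. Schwann cell markers summed to 792 to 918 FPKM in DIF and 968 to 1070 in Met, mostly Cryab, whose values overlapped between the groups. Of 7 tested, 1 was called (14.3%, against 3.86% of all tested genes). This was Pmp22, which went the other way, from 37.3 FPKM in DIF to 24.2 in Met. The Schwann cell sum gave the smallest p that an exact two-sided permutation test of 3 against 3 allows, 0.10. None of the other marker sums of the 10 cell types reached that value. In bulk samples fewer cells of a type and less RNA per cell cannot be told apart.

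Among protein-coding genes called higher in Met, Gatm rose most. Gatm, which encodes the enzyme of the first step of creatine synthesis (listed at chromosome 2, 122424948 to 122441784), was at 3.96, 3.43 and 3.85 FPKM in DIF and at 24.6, 24.9 and 24.4 in Met. The groups were far apart and the Met values nearly equal, a 6.58-fold difference of the means with a log2 fold change of 2.43 ± 0.07 (SE; adjusted p = 3.5e-09). Gatm was also low in TB (3.67 ± 0.195) and PIF (3.02 ± 0.270). Cd24a, a surface glycoprotein with a lipid anchor (chromosome 10, 43454280 to 43460261), was at 28.8, 35.9 and 37.3 FPKM in DIF and at 124, 143 and 146 in Met. Each Met library was above each DIF library, with a log2 fold change of 1.99 ± 0.11 (adjusted p = 1.8e-06). Dlk1, a transmembrane protein with EGF repeats related to Notch ligands, was at 0.297, 0.75 and 0.593 FPKM in DIF and at 3.77, 4.8 and 6.43 in Met (log2 fold change 1.94 ± 0.16, adjusted p = 3.4e-05). Scg2, a secretogranin of hormone granules, rose from 9.47 ± 1.28 to 34.7 ± 1.73 FPKM, but both groups were below TB (46.6) and PIF (65.2). The other genes among the 15 largest protein-coding rises were Angpt2, Bmp2, Dok5, Glipr1, Nqo1, Aldh3a1, Mocos, Cyp1a1, Ndp, Lpar3 and Nptx1, with log2 fold changes between 1.23 and 1.92. In PIF, Dok5, Mocos and Ndp stood near their Met means, at 4.25, 6.71 and 2.64 FPKM against 3.58, 7.5 and 2.79 in Met. Their DIF means were 0.463, 2.23 and 0.528. Angpt2, Bmp2, Glipr1 and Lpar3 had PIF means nearer to DIF than to Met.

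**Figure D2:**
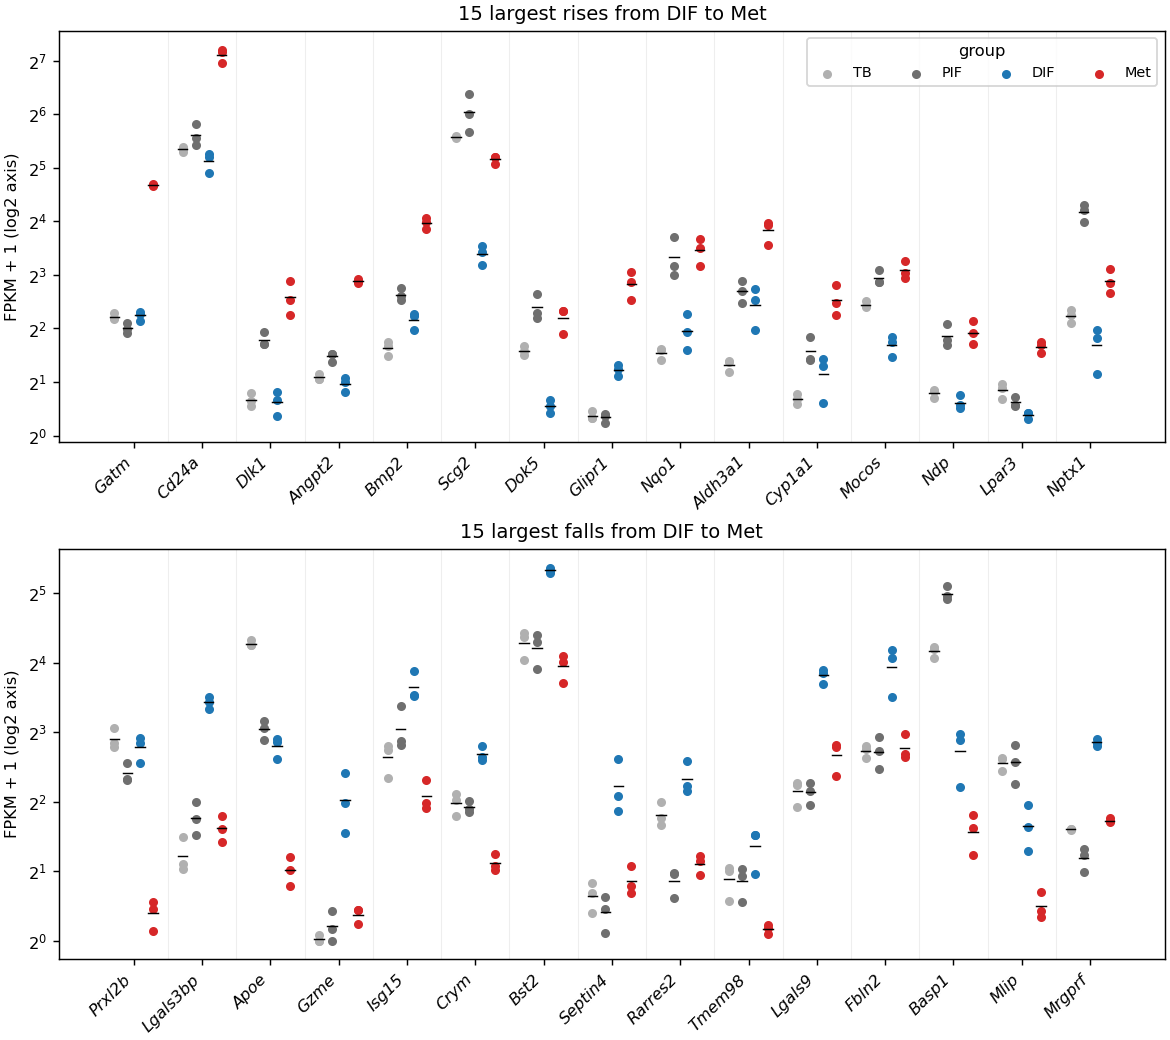
FPKM + 1 (vertical, log2 axis) of the 15 protein-coding genes that rose most (top) and fell most (bottom) from DIF to Met, with 1 point per library, black lines at the mean, and TB and PIF in greys. In each gene the 3 red Met points lie beyond the 3 blue DIF points, and for genes such as Scg2, Nqo1 and Basp1 the TB or PIF values lie nearer to the other side.

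Genes for growth factors and their receptors formed 1 of the groups with the most rises. This list and the others were chosen with earlier results of these data known, so their shares only describe these samples. Of 33 tested members of the list, 7 rose and none fell, a share of 21.2% against 3.86% of all tested genes, with a median log2 fold change of 0.12. Angpt2, a ligand of the endothelial receptor TIE2 (chromosome 8, 18740279 to 18791578), was at 1.01, 0.752 and 1.12 FPKM in DIF and at 6.36, 6.18 and 6.58 in Met. Each Met value was several times the highest DIF value, with a log2 fold change of 1.92 ± 0.08 (adjusted p = 1.7e-07). Fgf7, a ligand for epithelial FGF receptors, was at 1.85, 2.81 and 2.61 FPKM in DIF and at 4.92, 8.17 and 7.14 in Met (log2 fold change 1.17 ± 0.15, adjusted p = 0.0012). It stood at 0.485 in TB and 0.585 in PIF. Igf1, the ligand of the IGF1 receptor, rose 2.91-fold from 0.95 ± 0.159 to 2.76 ± 0.228 FPKM (adjusted p = 0.00011). The EGF receptor ligand Areg was far more abundant per length and rose less, from 86.0 ± 10.3 to 122 ± 1.32 FPKM (adjusted p = 0.011). Ereg, Fgfr3 and Igfbp3 were called as well, but lost the call when single libraries were left out, with highest adjusted p-values of 0.0575 without Met replicate 2, 0.0566 without DIF replicate 3 and 0.0735 without Met replicate 3.

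The ligands of the BMP pathway signal through SMAD proteins to the Id genes. Of its 17 tested members, 4 rose and none fell (23.5%, against 3.86% of all tested genes), with a median of 0.16. The ligand Bmp2 was at 2.94, 3.69 and 3.85 FPKM in DIF and at 14.8, 13.4 and 15.8 in Met, a log2 fold change of 1.81 ± 0.10 (adjusted p = 1.8e-06). All 3 Met values were far above the highest DIF value. Id4, a transcription factor without a DNA-binding domain, rose from 10.8 ± 0.471 to 18.7 ± 1.17 FPKM (adjusted p = 0.00029), and Bambi, a decoy receptor, from 7.41 ± 1.03 to 12 ± 0.564 (adjusted p = 0.0084). The antagonist Grem1 was called at 18.0 ± 2.74 against 27.1 ± 4.37 FPKM, and its adjusted p was 0.122 without Met replicate 2. Of 28 tested genes of the TGF-beta and activin pathway, 2 rose (7.14%, against 3.86% of all tested genes). Among them Tgfbi, a TGF-beta target and secreted matrix protein, rose from 19.7 ± 2.50 to 30.4 ± 1.35 FPKM (adjusted p = 0.0061).

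Most tested genes of the aryl hydrocarbon receptor battery rose in Met. This list was added after the values were seen, so its count describes the samples it was picked from. Of 8 tested members, 6 rose (75%, against 2.36% of all tested genes higher in Met) and none fell. The median log2 fold change was 0.68. Cyp1a1, a cytochrome P450 (chromosome 9, 57595211 to 57611107), was at 0.516, 1.68 and 1.46 FPKM in DIF and at 4.56, 3.76 and 6.01 in Met, a log2 fold change of 1.40 ± 0.21 (adjusted p = 0.0029). DIF replicate 1 was the lowest library, and the groups did not overlap. Nqo1, a quinone reductase, was at 2.01, 2.8 and 3.82 FPKM in DIF and at 8, 11.8 and 10.3 in Met (log2 fold change 1.52 ± 0.20, adjusted p = 0.0014). Aldh3a1, an aldehyde dehydrogenase, was at 2.93, 4.79 and 5.63 FPKM in DIF and at 10.8, 14.6 and 14.3 in Met (log2 fold change 1.41 ± 0.18, adjusted p = 0.0011). In each of these enzymes the lowest Met library was well above the highest DIF library. In PIF, Nqo1 stood at 9.04 FPKM, near its Met mean of 10.0 (limma, Met against PIF, adjusted p = 0.66). Aldh3a1 and Cyp1a1 stood at 5.49 and 1.99 in PIF, between their DIF and Met means. The TB means were 1.92 for Nqo1, 1.5 for Aldh3a1 and 0.605 for Cyp1a1. The receptor gene itself, Ahr, rose from 4.58 ± 0.317 to 7.17 ± 0.272 FPKM (adjusted p = 0.0025), and Tiparp, which feeds back on the receptor, from 9.15 ± 1.18 to 15.2 ± 2.28 (adjusted p = 0.0059). Ugt1a7c rose from 0.584 ± 0.119 to 1.54 ± 0.185 FPKM, though it shares exons with other Ugt1a genes and its reads may be split. Cyp1b1, a further target, was at 14.2 ± 0.833 and 15.3 ± 0.368 FPKM and was not called (adjusted p = 0.62). These 6 calls held in every alternative in which the gene was tested. In the 250 bases before the start, 2 of the 4 called members with a RefSeq promoter held the letters GCGTG on either strand. So did 4 of the 6 tested members with one, called or not, against 30.9% of all 27025 genes with a RefSeq promoter. Nqo1 and Aldh3a1 also stand in the list of NRF2 targets, the oxidative stress genes. Of its 27 tested members, 4 rose and 1 fell (18.5%, against 3.86% of all tested genes). The other 2 that rose, Gclc and Abcc4, lost the call in 5 and 8 alternatives, and only 2 members were called higher without DIF replicate 1, without Met replicate 2, without Met replicate 3, without a filter or with the 6 libraries alone. The member that fell was Cbr3, a carbonyl reductase, from 22.4 ± 2.20 to 14.1 ± 1.09 FPKM (adjusted p = 0.0017).

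Of 43 tested genes of G2 and mitosis, 12 rose by small amounts and none fell (27.9%, against 3.86% of all tested genes). Each of the 43 had a positive log2 fold change, with a median of 0.26. The cyclin Ccnb1 was at 53.8, 54.5 and 57.2 FPKM in DIF and at 69.5, 71.2 and 68.6 in Met, a 1.27-fold difference (adjusted p = 0.011). The groups did not overlap, and the difference was small. The mitotic kinase Nek2 rose from 19.7 ± 1.19 to 25.2 ± 0.491 FPKM (adjusted p = 0.011) and the spindle motor Kif11 from 19.2 ± 0.736 to 24.1 ± 0.754 (adjusted p = 0.012). Mki67, the proliferation marker, was at 27.8 ± 0.785 and 34.4 ± 2.15 FPKM and was not called (adjusted p = 0.09) except with the replicate block, nor was the kinase Plk1 (adjusted p = 0.36). None of the 12 kept the call in every alternative: 3 members were called without DIF replicate 1, 4 without DIF replicate 2, 10 without DIF replicate 3, 6 without Met replicate 1, and 1 each without Met replicate 2 and Met replicate 3. With the replicate block and with voom 17 were called, and with a library left out the median stayed between 0.21 and 0.28. Of 43 genes of G1, S phase and replication, only the cyclin Ccne2 was called (2.33%, against 3.86% of all tested genes), and the median was 0.10.

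Several interferon-stimulated genes fell in Met. Of 28 tested members of the list, 8 fell and none rose (28.6%, against 1.5% of all tested genes lower in Met), and the list's median was -0.35 on the log2 scale. In all, 24 of the 28 had a negative value. The promoters of 4 of the called genes are shown because they hold the response element core, GAAA followed by any 2 bases and GAAA again, on either strand. They are the 250 bases before the RefSeq start in GRCm38.p6, read on the strand of the gene, with each match in capitals. All 4 genes lie on the minus strand, at chr4:156200819-156201068 (Isg15), chr8:71537473-71537722 (Bst2), chr11:78984925-78985174 (Lgals9) and chr11:48871421-48871670 (Irgm1).
Isg15: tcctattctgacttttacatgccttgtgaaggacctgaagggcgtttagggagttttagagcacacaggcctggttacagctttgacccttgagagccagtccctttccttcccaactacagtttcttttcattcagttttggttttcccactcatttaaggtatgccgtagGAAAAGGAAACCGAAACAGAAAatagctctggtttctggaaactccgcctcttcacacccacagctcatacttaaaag
Bst2: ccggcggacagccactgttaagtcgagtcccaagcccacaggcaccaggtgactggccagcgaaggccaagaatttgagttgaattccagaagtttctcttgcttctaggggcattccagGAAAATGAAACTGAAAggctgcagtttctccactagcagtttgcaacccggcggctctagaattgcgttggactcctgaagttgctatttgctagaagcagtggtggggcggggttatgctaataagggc
Lgals9: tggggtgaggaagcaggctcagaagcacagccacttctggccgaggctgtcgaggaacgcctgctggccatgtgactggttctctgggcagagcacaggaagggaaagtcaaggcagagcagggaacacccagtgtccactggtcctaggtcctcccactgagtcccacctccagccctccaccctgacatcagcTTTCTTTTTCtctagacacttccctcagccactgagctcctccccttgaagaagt
Irgm1: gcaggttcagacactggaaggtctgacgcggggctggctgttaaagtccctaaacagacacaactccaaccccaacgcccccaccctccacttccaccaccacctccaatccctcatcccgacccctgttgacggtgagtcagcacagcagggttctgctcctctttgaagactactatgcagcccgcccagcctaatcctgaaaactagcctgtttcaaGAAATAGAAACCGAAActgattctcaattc
In Isg15 there were 3 overlapping matches, which ended 68, 62 and 56 bases before the start. Bst2 had 2 overlapping matches, 120 and 114 bases away, Irgm1 had 2, at 20 and 14 bases, and Lgals9 had 1, at 45 bases and on the opposite strand. The core stood in the promoters of 4 of the 7 called members with a RefSeq promoter and of 13 of the 25 tested members with one, against 3.46% of all 27025 genes with a promoter, and a match is a description of the letters only.

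Isg15, a ubiquitin-like protein, was at 10.5, 13.7 and 10.6 FPKM in DIF and at 2.74, 3.96 and 2.95 in Met. Each Met library was below each DIF library, with a log2 fold change of -1.58 ± 0.17 (adjusted p = 0.00041). Bst2, or tetherin, which holds budding viruses at the cell surface, was at 38, 40.2 and 39 FPKM in DIF and at 12.1, 16.1 and 15.1 in Met (log2 fold change -1.39 ± 0.14, adjusted p = 0.00024). Lgals9, which encodes galectin-9, was at 13.8, 13.5 and 12 FPKM in DIF and at 4.17, 5.93 and 6.02 in Met (log2 fold change -1.16 ± 0.13, adjusted p = 0.00063). Lgals3bp, a secreted glycoprotein that binds galectins, fell most of the list, from 9.76 ± 0.616 to 2.06 ± 0.393 FPKM (adjusted p = 3.3e-05). In TB and PIF all 4 genes had means below those of DIF: Bst2, for example, stood at 18.5 in TB and 17.6 in PIF, and Lgals3bp at 1.33 and 2.41. Irf9, which reads the response element, fell from 3.32 ± 0.262 to 1.71 ± 0.110 FPKM (adjusted p = 0.0026). Xaf1, an interferon-induced gene of cell death, fell from 2.74 ± 0.591 to 1.00 ± 0.237 FPKM (adjusted p = 0.0035). Irgm1 and Parp9 completed the 8, and their adjusted p-values were 0.155 and 0.114 without Met replicate 3. The abundant member Ifitm3, a membrane protein gene, was at 185 ± 15 and 152 ± 21.1 FPKM and was not called (adjusted p = 0.38). Of 14 tested genes of MHC class I presentation, 1 fell (7.14%, against 1.5% of all tested genes lower in Met). This was the immunoproteasome subunit Psmb10, whose adjusted p was 0.131 without DIF replicate 1. B2m was at 593 ± 22.2 and 547 ± 48.3 FPKM (adjusted p = 0.47).

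**Figure D3:**
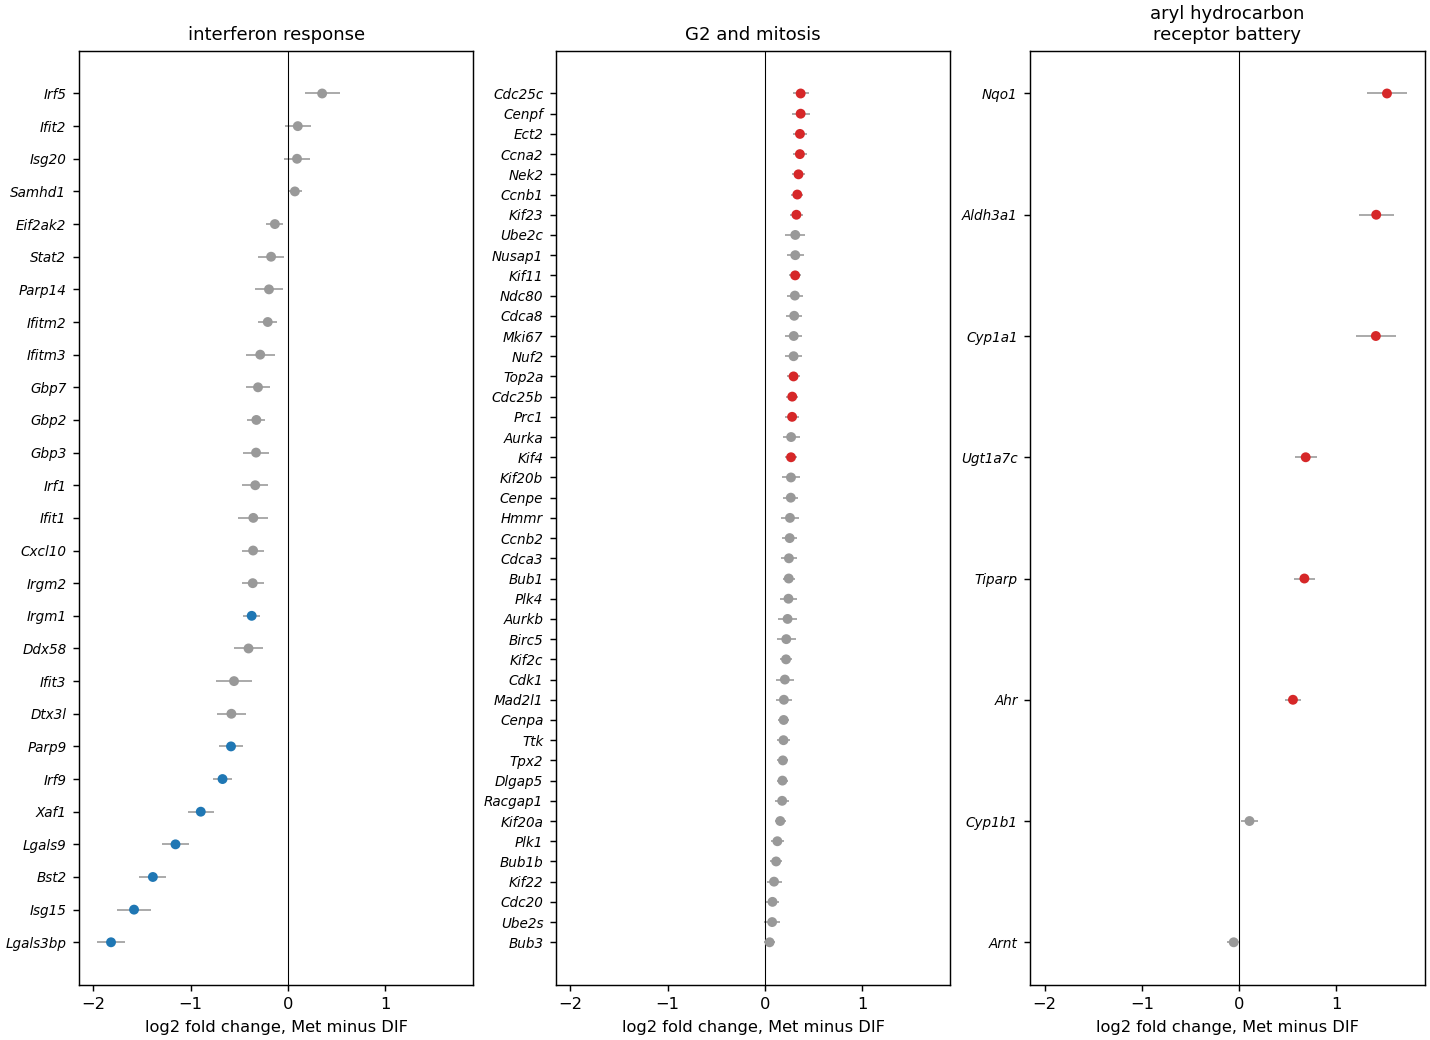
Log2 fold change of Met against DIF with its standard error (bars) for the tested members of 3 gene groups, ordered by size, with 27 of the 28 interferon genes drawn. Called genes are red (higher) or blue (lower): 8 of 28 interferon genes were lower, 12 of 43 genes of G2 and mitosis were higher by small amounts, and 6 of 8 genes of the aryl hydrocarbon receptor battery were higher.

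Among protein-coding genes called lower in Met, Prxl2b fell most. Prxl2b, a thioredoxin-like enzyme that makes prostaglandin F2-type products (chromosome 4, 154979961 to 154983592), was at 4.91, 6.2 and 6.53 FPKM in DIF and at 0.107, 0.372 and 0.478 in Met. Only 18 reads in all supported the Met values against 323 in DIF, which gave an 18.5-fold difference with a 95% exact interval of 11.5 to 31.6 that covers counting error only (adjusted p = 1.4e-06). Its means in TB (6.46) and PIF (4.30) were nearer to DIF than to Met. Apoe, the lipid carrier apolipoprotein E (chromosome 7, 19430034 to 19433113), was at 6.48, 6.26 and 5.12 FPKM in DIF and at 0.72, 1.02 and 1.3 in Met, a log2 fold change of -1.79 ± 0.11 (adjusted p = 4.5e-06). It was at 18.3 in TB and 7.24 in PIF, so Met was the lowest of the 4 groups. Crym, a thyroid hormone-binding protein, fell from 5.43 ± 0.493 to 1.17 ± 0.182 FPKM (adjusted p = 4.5e-06), and Rarres2, which encodes the chemoattractant chemerin, from 4.04 ± 0.832 to 1.15 ± 0.206 (adjusted p = 0.00062). The granzyme gene Gzme, a serine protease of lymphocyte granules, was at 2.95, 4.34 and 1.92 FPKM in DIF and at 0.18, 0.358 and 0.357 in Met, with 150 and 15 reads in all (adjusted p = 0.00063). Gzmd, its neighbour, which lies outside the rule for named genes and was chosen after its values were seen, fell from 2 ± 0.211 to 0.435 ± 0.143 FPKM, and the granzymes resemble each other in sequence, so that reads may be shared. The leukocyte marker sums of the DIF and Met libraries, given above, overlapped, their part in these values was not tested, and Ptprc and Cd3e were listed at 0. Basp1, Fbln2, Mlip, Mrgprf, Septin4 and Tmem98 completed the 15 largest protein-coding falls, with log2 fold changes between -1.34 and -1.12.

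Genes of the extracellular matrix changed in both directions. Of 37 tested matrix glycoproteins, proteoglycans and crosslinking enzymes, 9 fell and 4 rose (35.1%, against 3.86% of all tested genes). Their median was -0.17. Bgn, the small proteoglycan biglycan, was at 150, 148 and 126 FPKM in DIF and at 88.6, 79.2 and 74.9 in Met (log2 fold change -0.80 ± 0.10, adjusted p = 0.0007). It had the highest level per length of the members that fell, and the groups did not overlap. Fbln2, a fibulin of elastic fibres and basement membranes, fell from 14.4 ± 3.56 to 5.83 ± 0.878 FPKM (adjusted p = 0.0026). Tgm2, a crosslinking transglutaminase, fell from 4.57 ± 0.685 to 2.07 ± 0.288 (adjusted p = 0.0026). Fbln1 fell from 0.740 ± 0.0327 to 0.0584 ± 0.0360 (adjusted p = 0.0007), with 172 reads in all in DIF and only 14 in Met. The other 5 that fell, Ccn3, Ccn5, Efemp2, Matn2 and Ogn, each lost the call in at least 1 alternative, and 5 members in all were called lower without DIF replicate 3 or without Met replicate 3. On the rising side, Eln, which encodes elastin, was at 2.35, 2.37 and 1.77 FPKM in DIF and at 7.03, 5 and 4.3 in Met (log2 fold change 1.01 ± 0.16, adjusted p = 0.0048). The crosslinking enzymes Loxl1 and Plod2 rose 1.54-fold and 1.33-fold (adjusted p = 0.0073 and 0.0087), and Thbs2, a thrombospondin, rose from 79.8 ± 6.24 to 127 ± 9.96 FPKM (adjusted p = 0.012, and 0.0504 without Met replicate 3).

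Among collagens, 1 of 15 rose and 1 fell (13.3%, against 3.86% of all tested genes). Col10a1 rose from 0.243 ± 0.0786 to 1.40 ± 0.0749 FPKM (adjusted p = 0.0007), and Col3a1 fell from 12.3 ± 1.84 to 7.08 ± 0.664 (adjusted p = 0.021, and 0.0912 without Met replicate 3). Of 18 basement membrane genes, Npnt rose and Col4a1 and Col4a2 fell (16.7%, against 3.86% of all tested genes). Npnt, which encodes the integrin ligand nephronectin, was at 5.54, 7.34 and 8.21 FPKM in DIF and at 12.4, 15.9 and 14.5 in Met (adjusted p = 0.0028). Col4a1 was at 8.25, 9.4 and 5.75 FPKM in DIF and at 4.15, 2.9 and 2.82 in Met (log2 fold change -1.03 ± 0.17, adjusted p = 0.0069). Col4a2 fell from 4.07 ± 0.816 to 1.64 ± 0.469 FPKM (adjusted p = 0.03, and 0.116 without Met replicate 3). Both collagen IV genes were far lower in TB and PIF, at or under 1.46 FPKM. Their listed ends overlap on opposite strands and the strand setting of the counting is not given, so reads there cannot be told apart. Of 33 matrix proteases and inhibitors, 3 rose and 2 fell (15.2%, against 3.86% of all tested genes). Adam10, a membrane sheddase, rose from 80.8 ± 1.15 to 109 ± 2.56 FPKM (adjusted p = 0.0009). The aggrecanase Adamts5 fell from 5.95 ± 0.531 to 3.31 ± 0.502 (adjusted p = 0.0057).

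Of 49 tested actomyosin genes, Mylk rose and Myl9 fell (4.08%, near the 3.86% of all genes), with a median of -0.06. Mylk lost the call in 5 alternatives, with adjusted p-values of up to 0.0754 without Met replicate 2. The promoter of Myl9, the regulatory light chain of smooth muscle and non-muscle myosin II, is shown because it holds a CArG box, the binding sequence of serum response factor, in capitals. It is the 250 bases before the RefSeq start on the plus strand, chr2:156775214-156775463 in GRCm38.p6.
Myl9: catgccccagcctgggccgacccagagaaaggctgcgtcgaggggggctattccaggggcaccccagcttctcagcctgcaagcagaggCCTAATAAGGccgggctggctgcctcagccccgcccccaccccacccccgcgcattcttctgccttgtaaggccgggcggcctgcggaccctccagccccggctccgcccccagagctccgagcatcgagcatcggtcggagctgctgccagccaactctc
The box ended 151 bases before the start. A CArG box stood in 8 of the 22 promoters of tested MRTF and SRF targets, against 1.62% of all 27025 genes with a RefSeq promoter. Myl9 was at 177, 213 and 226 FPKM in DIF and at 73.8, 124 and 115 in Met, where Met replicate 1 was the lowest library. The log2 fold change was -1 ± 0.17 (adjusted p = 0.0077), and the call was lost when only the 6 DIF and Met libraries were fitted. Myl9 was the only 1 of 29 tested MRTF and SRF targets to be called (3.45%, against 3.86% of all genes), so the other targets with a box were not called. The smooth muscle actin gene Acta2 was at 255 ± 38.3 and 172 ± 42.4 FPKM (adjusted p = 0.14). Neither the myosin heavy chain gene Myh9 (94.3 ± 4.92 and 87.7 ± 1.59 FPKM, adjusted p = 0.66) nor the kinase genes Rock1 and Rock2 (adjusted p = 0.6 and 0.55) nor Rhoa and Rhoc (adjusted p = 0.78 and 0.42) were called. Of 26 YAP and TEAD targets, 2 rose, Igfbp3 and Yap1 itself (7.69%, against 3.86% of all genes). Neither kept the call in every alternative: no member was called without Met replicate 3, where the adjusted p of Yap1 was 0.0693, and 1 each without DIF replicate 2, without Met replicate 2 and with the 6 libraries alone. The classic targets Ccn1 (71.0 ± 12 and 84.0 ± 8.83 FPKM) and Ccn2 (185 ± 3.39 and 189 ± 17.4) were not called (adjusted p = 0.31 and 0.94).

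In the WNT pathway 2 of 20 tested genes fell (10%, against 1.5% of all tested genes lower in Met), both secreted antagonists. Dkk2 was at 3.67, 3.07 and 3.54 FPKM in DIF and at 1.14, 1.25 and 1.35 in Met (log2 fold change -0.98 ± 0.08, adjusted p = 3.3e-05). Sfrp1 was at 11.5, 11.7 and 9.72 FPKM in DIF and at 5.18, 6.64 and 5.85 in Met (log2 fold change -0.80 ± 0.10, adjusted p = 0.00082). In both genes all Met libraries were below all DIF libraries. Among cadherins, EMT factors and vimentin, 3 of 14 rose and 1 fell (28.6%, against 3.86% of all tested genes). The cell adhesion genes Cdh13 and Alcam rose from 6.82 ± 0.606 to 12.3 ± 0.833 FPKM (adjusted p = 0.0011) and from 3.65 ± 0.648 to 7.14 ± 1.04 (adjusted p = 0.0036). Cdh2, N-cadherin, was called at 42.1 ± 1.56 and 51.8 ± 3.82 FPKM with an adjusted p of 0.041, and of 0.125 without DIF replicate 3. The EMT factor Twist1 fell from 3.53 ± 0.305 to 1.66 ± 0.675 FPKM (adjusted p = 0.014, and 0.0669 without Met replicate 2). Nedd9, an adaptor of focal adhesions, was at 3.17, 3.23 and 3.15 FPKM in DIF and at 5.82, 5.85 and 5.81 in Met (log2 fold change 0.71 ± 0.08, adjusted p = 0.00063), with almost no spread within a group. Sema3a, a guidance cue, rose from 2.05 ± 0.427 to 5.46 ± 0.561 FPKM (adjusted p = 0.00028). It was the only 1 of 36 axon guidance genes called (2.78%, against 3.86% of all tested genes).

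Of 16 tested genes of melanocyte differentiation only Apoe was called (6.25%, against 3.86% of all tested genes). Mitf, the master regulator of melanocytes, was at 4.24 ± 1.17 FPKM in DIF and 4.25 ± 0.827 in Met (log2 fold change 0.02 ± 0.17, adjusted p = 0.98), below TB (15.2) and PIF (11.1). Of 25 tested genes of the dedifferentiated and invasive melanoma state, 2 rose and 2 fell (16%, against 3.86% of all tested genes). The median was 0.14. Of the 2 that rose, 1 kept the call in every alternative, and neither gene that fell did. Of genes of the dedifferentiated state, Axl was at 126 ± 4.14 and 145 ± 4.53 FPKM (adjusted p = 0.097) and was not called. Nor was Ngfr, at 132 ± 13.8 and 138 ± 6 (adjusted p = 0.77). In JAK-STAT3 signalling Stat3 and Cebpd fell among 20 tested genes (10%, against 1.5% of all tested genes lower in Met). Their adjusted p-values were 0.073 and 0.137 when Met replicate 3 or DIF replicate 2 was left out. No member was called in 10 of the 42 lists, among them NF-kappaB, oxidative phosphorylation, cholesterol synthesis, endoplasmic reticulum chaperones, and ERK feedback and immediate early genes. The mitochondrially encoded genes had a median of 0.23 and the cytosolic ribosomal protein genes one of -0.09 without any call.

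**Figure D4:**
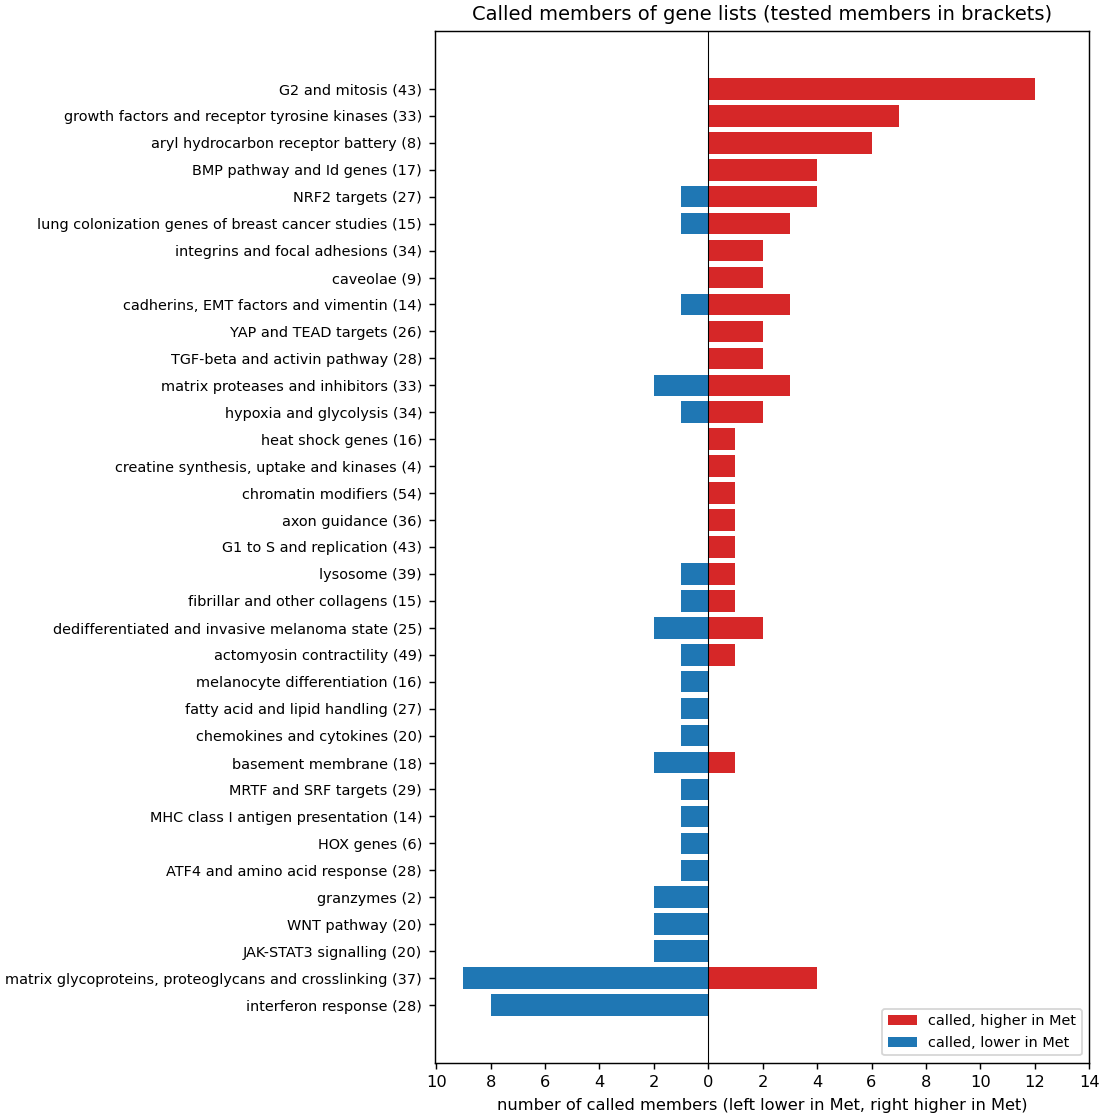
Number of called members per gene list, to the right for genes higher and to the left for genes lower in Met, with the number of tested members in brackets after each name. Only lists with at least 1 call are drawn, and 3 of them (aryl hydrocarbon receptor battery, creatine, granzymes) were added after the values were seen.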

How the data were processed

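Sequencing gave paired reads of 150 bases from 12 libraries of 4599 cells (per the labels' protocols). The submitters' processing notes name fastp, HISAT2 2.0.5 and featureCounts 1.5.0-p3. The sources used here state no genome build, annotation or strand setting, and gene positions are printed as deposited. The deposited values are FPKM computed by the authors. Multiplied by gene length they gave whole reads for 100% of values above 0 at a tolerance of 0.001, with 15.5 to 18.4 M reads per library. The median ratio of the deposited FPKM to the mean over libraries was 1.005 in each of the 12 libraries, as it is after scaling by median-ratio size factors. That scaling was kept, and no label or header describes it.

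Genes with a mean of at least 0.5 FPKM over the 12 libraries were fitted with limma 3.58.1 in R 4.3.3 on log2(FPKM + 1), with 1 mean per group, an intensity trend and 8 residual degrees of freedom. Fold changes of low genes are understated by the added 1. The fit was tested on simulated data. Alternatives were a pseudocount of 0.1, no filter, a filter at 2 FPKM, the 6 libraries alone, a replicate block, quantile normalization, voom on the rebuilt reads, each library left out and, chosen after seeing the data, scaling to library totals.

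The text names genes from the 15 largest protein-coding changes and 5 largest non-coding changes in each direction, for each list its 4 members of smallest p, for each marker list its 3 most abundant genes, and a set of contractility, identity and sex-linked genes. Fgfr3, Ahr, Tiparp, Ugt1a7c, Cyp1b1, Mki67, Plk1, Gzmd, Ifitm3, B2m, Irf9, Xaf1, Irgm1, Parp9, Eln, Loxl1, Plod2, Thbs2, Ogn, Ccn3, Ccn5, Efemp2, Matn2, Pmp22, Gapdh and Gm10123 were picked outside this rule, with their values known. The members and the 42 gene lists were chosen with earlier results of these data known, and 3 lists were added after the values were seen. Some genes are not reported here. Promoters were taken from RefSeq (GRCm38.p6) by gene symbol.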

Additional observations from a re-analysis of the deposited data

How the results depend on the processing

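The median change over all tested genes moved by at most 0.0036 on the log2 scale under any scaling, and no called gene changed sign in any of the 14 alternatives. The number of called genes was 463 with a pseudocount of 0.1, 398 without a filter, 421 with a filter at 2 FPKM, 528 after quantile normalization, 631 with voom on the rebuilt reads and 488 after scaling to library totals. It was 300 (181 higher, 119 lower) when only the 6 DIF and Met libraries were fitted, with 4 residual degrees of freedom in place of 8. With each library left out in turn it ranged from 234 to 400, with 144 to 248 higher and 90 to 152 lower. Of 125 called genes followed through the alternatives, 69 kept the call in all of those in which they were tested. The replicate block gave 537 calls (324 higher, 213 lower). Deviations from the group means correlated at 0.33, -0.06 and 0.16 between DIF and Met libraries of replicate number 1, 2 and 3. Between libraries of unlike number the correlations ran from -0.33 to 0.23. These few values cannot show if same-numbered libraries were handled together. Depth limits genes such as Prxl2b, whose Met level rests on 18 reads, and Tmem98, with 11.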

Other observations

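The 2 largest changes among called genes were in a pseudogene and a transcript of unconfirmed type. Gm46223, a processed pseudogene (chromosome 10, 50298230 to 50298904), was listed at 0, 0 and 0.0814 FPKM in DIF and at 25.7, 19.3 and 23.6 in Met, with 1 read in all in DIF and 847 in Met. The ratio was 823-fold with a 95% exact interval of 147 to 32520 that covers counting error only, and the mean was 15.3 FPKM in TB and 720 in PIF. Gm37416, the transcript of unconfirmed type (chromosome 2, 16027919 to 16028236), was at 21.1, 14.9 and 14.5 FPKM in DIF and at 193, 170 and 176 in Met, a 10.7-fold difference (limma, adjusted p = 8.8e-08). Its means in TB and PIF, 12.3 and 15.2 FPKM, were near that of DIF. Of 679 tested long noncoding RNAs, 11 rose and 2 fell, and of 10837 protein-coding genes 283 rose and 185 fell. Over all 12661 tested genes 2.36% rose and 1.5% fell. Among non-coding genes that fell, the spliceosomal U1 gene Rnu1a1 went from 34.9 ± 3.35 to 21.3 ± 2.88 FPKM (limma, adjusted p = 0.014, and 0.0614 without DIF replicate 2), and it has near-identical copies that may share its reads.

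The glycolytic gene Gapdh, chosen after its values were seen, was listed at 1.70, 10.2 and 1.61 FPKM in DIF and at 61.5, 59.6 and 32.5 in Met, and was not called (limma, log2 fold change 3.55 ± 1.16, adjusted p = 0.13). Over its alternatives the adjusted p ranged from 0.0262, when only the 6 DIF and Met libraries were fitted and the gene was called, to 0.304. Its values also spread within TB (1.03, 1.5 and 22.9) and PIF (52.9, 1.28 and 34.1). The processed pseudogene Gm10123, chosen in the same way, was at 503, 375 and 360 FPKM in DIF and at 1131, 1292 and 718 in Met (limma, adjusted p = 0.054). It was called in 4 of 14 alternatives, which were the filter at 2 FPKM, the 6 libraries alone, the replicate block and voom, with adjusted p-values from 0.0177 to 0.192 over all of them. Reads of a gene and its near-identical copies can be split in such counting, and the part of that in these values was not tested.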
